A study of Lemna aequinoctialis with 6 samples.

Results

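The transcripts described here encode enzymes of chlorophyll and tetrapyrrole metabolism in Lemna aequinoctialis, a duckweed, which is a small floating aquatic plant. They were found by searching the gene descriptions of the authors' deposited list of changed transcripts for 13 enzyme terms of the pathway, and the search returned 15 transcripts of 8 genes, where genes and isoforms are those of the deposited IDs, which have the form that the assembler Trinity gives. They were 15 of the 5093 transcripts on the list and of the 81787 in the full table. The members were thus selected on the same contrast that is described below: the list held only transcripts with an absolute log2 fold change of at least 1.00 and a false discovery rate (FDR) of at most 0.05 between treated and control plants. For this reason their values and the count of calls among them are given as a description, and no p-value is printed for a member or for the members together.

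RNA was sequenced from 3 samples under IPA treatment and from 3 control samples. IPA stands for indole-3-propionic acid, which differs from the plant hormone auxin, indole-3-acetic acid, by a longer side chain. RNA came from powdered plant material that the labels call plant cells, and the library kit kept mRNA and its strand. The labels used here give no dose, duration or culture age, and nothing in them showed that the replicates were separate cultures, so the spread between samples may be technical. Over the transcripts of the full table, libraries held 30149649 to 45233584 reads in IPA and 38556985 to 41370062 reads in control. Values are normalised reads, which are read counts scaled for each library by the authors. Transcript lengths were not used here, so levels are compared between libraries and not between genes. Each ± is the SD over 3 libraries.

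Chlorophyll is built in the plastid from glutamate by way of 5-aminolevulinate and a chain of porphyrins. At protoporphyrin the pathway forks: insertion of magnesium leads to chlorophyll, and insertion of iron leads to heme. An earlier fork, at uroporphyrinogen III, leads to siroheme. In flowering plants the reduction of protochlorophyllide needs light, and free intermediates are phototoxic, so the supply of intermediates is kept in step with the proteins that bind chlorophyll.

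The members covered the late part of the chlorophyll branch and 1 step of the siroheme branch. The chlorophyll branch was represented by 14 transcripts of 7 genes: 7 transcripts of 1 gene for magnesium-protoporphyrin IX monomethyl ester cyclase, 4 transcripts of 3 genes for protochlorophyllide reductase, and 1 transcript each for divinyl chlorophyllide a 8-vinyl-reductase, chlorophyllide a oxygenase and geranylgeranyl diphosphate reductase. The siroheme branch was represented by uroporphyrinogen III methyltransferase. For 7 of the 13 terms, among them magnesium-chelatase, glutamyl-tRNA reductase, chlorophyll synthase, pheophorbide and STAY-GREEN, no description on the list matched. Descriptions exist here only for listed transcripts, so this says nothing about the levels of those enzymes.

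All 15 members were higher in IPA. Each of them had its lowest IPA library above its highest control library. Among all transcripts tested, 16.6% had this order, and 3.16% of the transcripts in the full table were on the authors' list as higher in IPA. Fold differences of the group means ran from 2.05 to 3.39, and log2 differences from 1.01 to 1.80 with a median of 1.32, against a median of 0.02 over all 78722 transcripts tested. These and later log2 differences are IPA minus control on the log2(normalised reads + 0.5) scale. With limma at an FDR of 0.05 over all transcripts, 14 of the 15 were called, all higher in IPA, where 8.37% of all transcripts were called and 4.49% were called higher. The rule used this contrast, so nothing is read from the members' count. The count was 4 without IPA 2, 5 without IPA 3 and 5 without control 2, and the count over all transcripts, 6587, was 1278, 2505 and 1568 without these libraries. In bulk RNA, fewer cells of a type and less RNA per cell cannot be told apart.

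**Figure D1:**
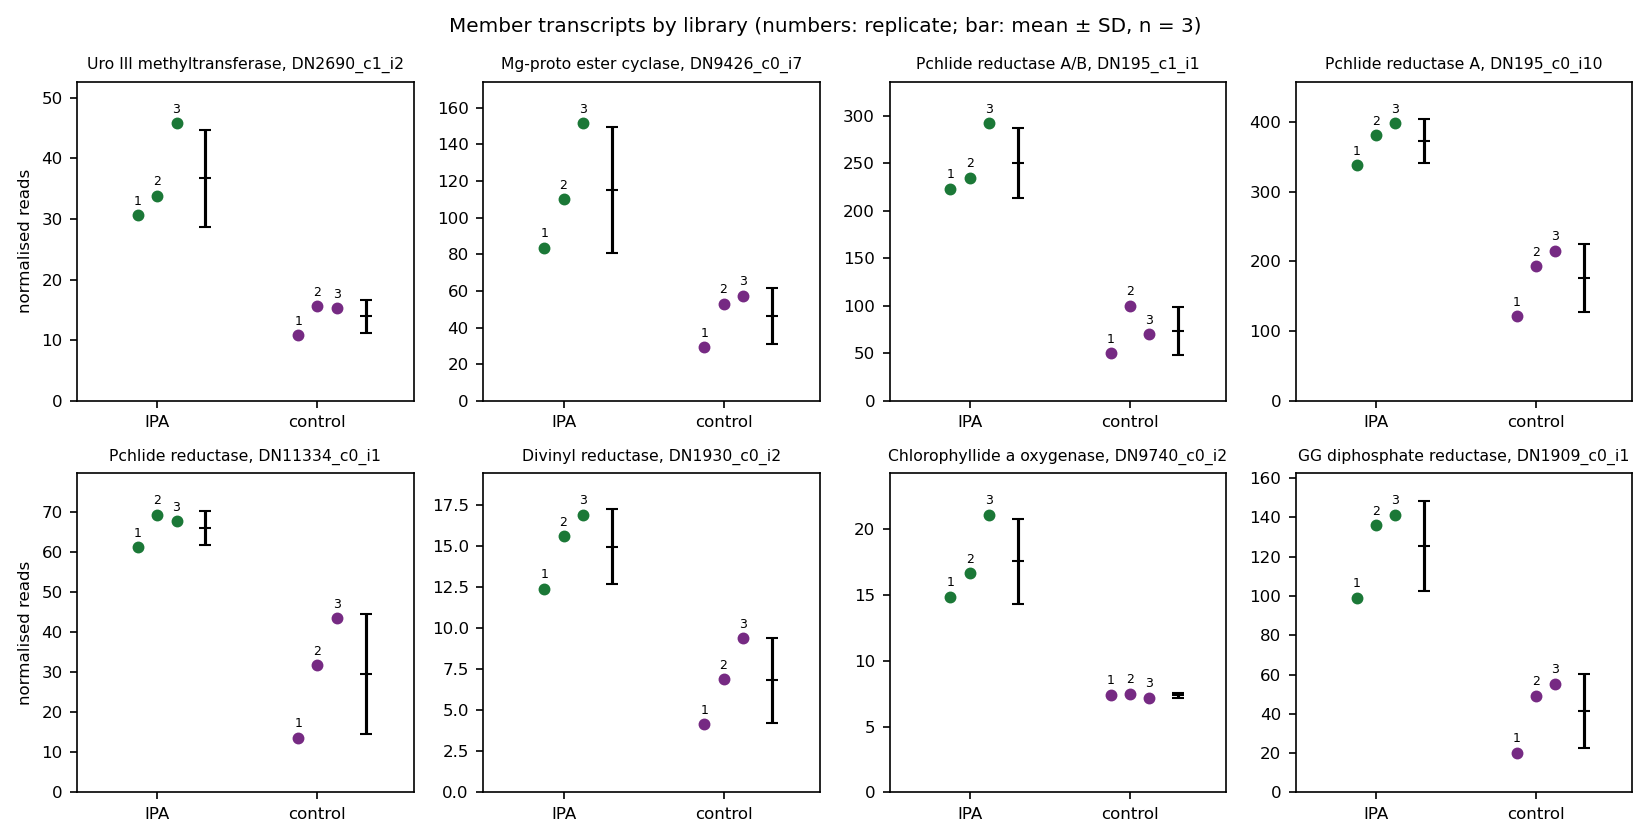
Normalised reads (y axis, from 0) of 1 member transcript per gene in the 3 IPA and the 3 control libraries; points are libraries with their replicate number, bars are means ± SD (n = 3). In every panel the IPA points lie above all control points; chlorophyllide a oxygenase has control points between 7.18 and 7.51, while those of DN11334_c0_g1_i1 run from 13.7 to 43.5. Pchlide is protochlorophyllide, Uro III is uroporphyrinogen III, Mg-proto is magnesium-protoporphyrin IX and GG is geranylgeranyl.

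Uroporphyrinogen III methyltransferase (DN2690_c1_g1_i2), which adds methyl groups to uroporphyrinogen III on the way to siroheme, the cofactor of nitrite and sulfite reductases, had 30.6, 33.8 and 45.8 normalised reads in IPA 1, 2 and 3, against 10.9, 15.6 and 15.3 in control 1, 2 and 3. IPA 3 stood above the other IPA libraries, and control 1 below the other controls. The means were 36.8 ± 8.01 in IPA and 13.9 ± 2.67 in control (SD, n = 3 each), a 2.64-fold difference. It was the sole member outside chlorophyll synthesis.

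The cyclase converts magnesium-protoporphyrin IX monomethyl ester to a protochlorophyllide by closing the isocyclic ring that marks chlorophylls. Its gene, DN9426_c0_g1, had 8 assembled isoforms, of which 7 were members. The one with the highest mean, i7, had 83.6, 110.1 and 151 normalised reads in IPA 1, 2 and 3, against 29.2, 52.9 and 57.3 in control 1, 2 and 3. The groups did not overlap. The coefficient of variation was 29.7% in IPA and 32.6% in control. The other 6 members of this gene differed 2.05-fold (i23) to 2.67-fold (i9). The isoform left off the list, i6, stood at 18.1 ± 5.02 in IPA and 9.62 ± 2.63 in control, 1.88-fold higher, and its groups came close, with 13.7 as the lowest IPA value and 12.6 as the highest control value. Summed over its 8 isoforms, the gene stood at 471 ± 134 in IPA and 194 ± 59.0 in control.

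Protochlorophyllide reductase carries out the light-dependent step that turns protochlorophyllide into chlorophyllide. It was described in 3 genes. In DN195_c1_g1 both isoforms were members: i1, described as form A, had 223, 235 and 292 normalised reads in IPA 1, 2 and 3, against 50.4, 100.2 and 70.5 in control 1, 2 and 3. Isoform i3, described as form B, had 123, 137 and 152 in IPA and 30.6, 52.7 and 43.0 in control. These 2 transcripts had the widest gap between groups: the lowest IPA value was 2.23 and 2.34 times the highest control value. Control 2 was the highest control for both. Their folds were 3.39 and 3.27. In Arabidopsis and barley, form A is known mainly from dark-grown seedlings, and form B also from green tissue. Here both names fell on isoforms of 1 assembled gene, and the reads of such similar isoforms may have been divided between them by the counting, so the A and B descriptions were not treated as separate genes.

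The second gene, DN195_c0_g1, also described as form A, had 338, 381 and 398 normalised reads for isoform i10 in IPA 1, 2 and 3, against 121, 193 and 215 in control 1, 2 and 3. The difference was 2.11-fold. Its other isoform, i11, took most of the gene's reads and was not on the list: it had 577, 649 and 662 in IPA and 312, 372 and 356 in control, 1.82-fold higher, without overlap. The third gene, DN11334_c0_g1, had a single transcript with 61.3, 69.4 and 67.8 in IPA 1, 2 and 3, against 13.7, 31.8 and 43.5 in control 1, 2 and 3. Its IPA libraries were closely spaced (coefficient of variation 6.45%), and its controls were the most widely spaced of any member (50.7%). This was the member that limma did not call.

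Over the 5 transcripts of the 3 genes, protochlorophyllide reductase had 1322, 1471 and 1572 normalised reads in IPA and 528, 749 and 728 in control, a 2.18-fold difference of the means. The genes' shares of these reads are given next as a description. DN195_c1_g1 supplied 26.6 ± 1.52% in IPA and 17.1 ± 2.86% in control, with 25.3% as its lowest IPA share and 20.4% as its highest control share. DN195_c0_g1 supplied 68.9 ± 1.30% in IPA and 78.6 ± 3.36% in control, and DN11334_c0_g1 supplied 4.56 ± 0.22% in IPA and 4.27 ± 1.69% in control. The ranges of DN11334_c0_g1 overlapped between the groups, and those of both other genes did not. The shares in a library add up to the whole, so the lower share of DN195_c0_g1 in IPA largely mirrors the higher share of DN195_c1_g1. Such read shares also depend on transcript length.

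Divinyl chlorophyllide a 8-vinyl-reductase (DN1930_c0_g1_i2), which reduces a vinyl group of the ring to an ethyl group, had 12.4, 15.6 and 16.9 normalised reads in IPA 1, 2 and 3, against 4.16, 6.90 and 9.38 in control 1, 2 and 3. Its fold was 2.20, and its lowest IPA value was 1.32 times the highest control value. Fewest reads stood behind this transcript: 138 in control 1, the smallest number for a member in any library, whereas the largest was 18615, for DN195_c0_g1_i10 in IPA 2.

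Geranylgeranyl diphosphate reductase (DN1909_c0_g1_i1) makes the phytyl chain that anchors chlorophyll and that also enters tocopherol. It had 99.2, 136 and 141 normalised reads in IPA 1, 2 and 3, against 20.2, 49.3 and 55.3 in control 1, 2 and 3. Control 1 stood well below both other controls. The means were 126 ± 23.0 in IPA and 41.6 ± 18.8 in control, a 3.02-fold difference.

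Chlorophyllide a oxygenase makes the precursor of chlorophyll b, the pigment found in the antennae. Its member, DN9740_c0_g1_i2, had 14.9, 16.7 and 21.1 normalised reads in IPA 1, 2 and 3, against 7.42, 7.51 and 7.18 in control 1, 2 and 3. The controls were almost level (coefficient of variation 2.28%, the smallest of any member), on 246, 236 and 314 reads before scaling, and control 1 was not the lowest here, alone among the members. The gene's other isoform, i3, was at 15.5, 15.3 and 17.8 in IPA and 15.4, 10.2 and 9.84 in control, so that IPA 2 lay just under control 1. The member isoform made up 51.8 ± 2.63% of the gene's reads in IPA and 39.0 ± 5.65% in control, and the lowest IPA share, 48.96%, was above the highest control share, 42.4%. Only i2 was on the list, and its selection by fold on this contrast favours a higher share in IPA. Summed over both isoforms the gene was at 33.8 ± 4.56 in IPA and 19.2 ± 3.18 in control, a 1.76-fold difference against 2.38-fold for the member alone.

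**Figure D2:**
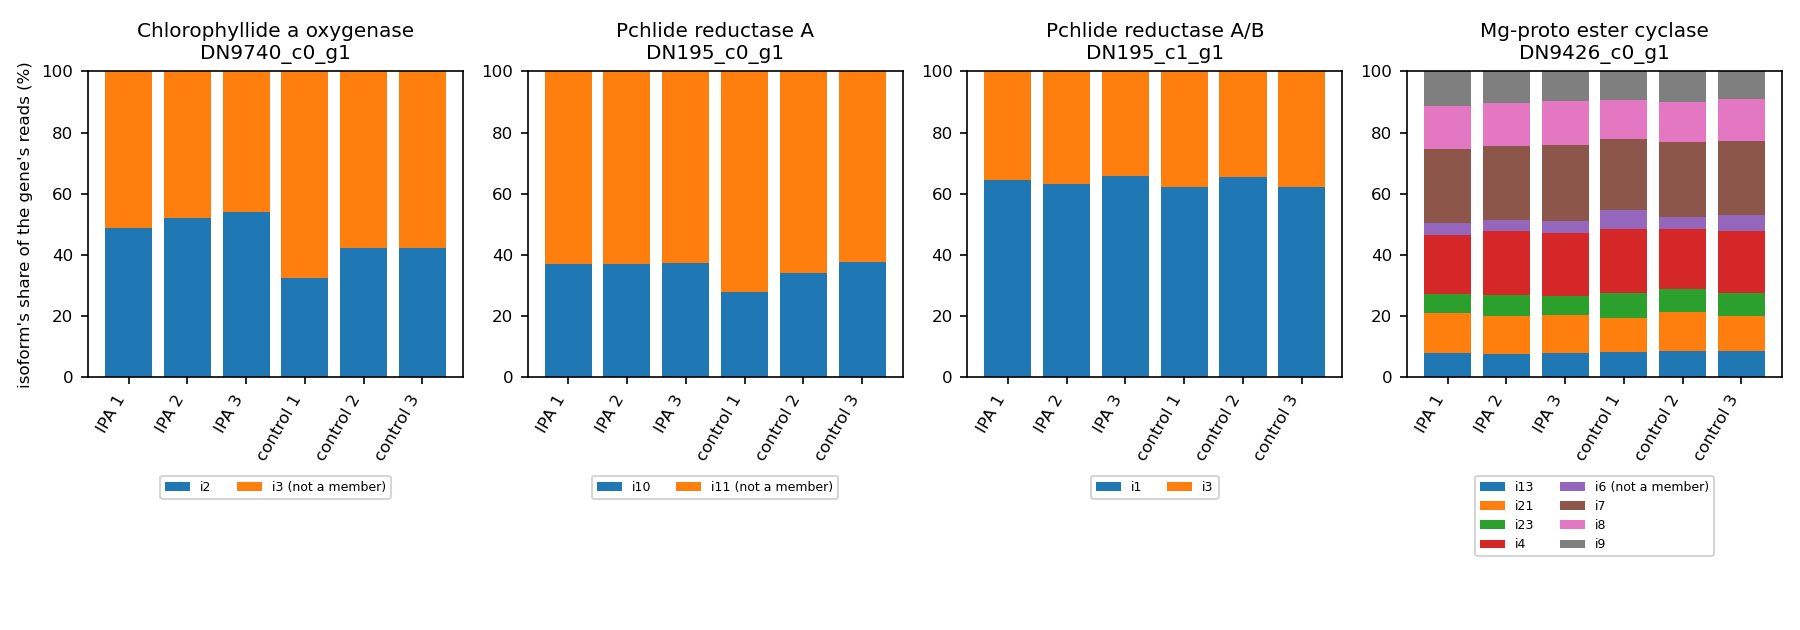
Share of each gene's normalised reads taken by each of its assembled isoforms (y axis, percent), for the 4 member genes with more than 1 isoform, in the 3 IPA and the 3 control libraries. The member isoform i2 of chlorophyllide a oxygenase holds 51.8% on average in IPA and 39.0% in control, while i1 of DN195_c1_g1 holds 64.4% in IPA and 63.3% in control. Selection of i2 by fold on this contrast favours its higher share in IPA.

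The mean isoform shares of the other genes differed by less. In DN195_c1_g1, i1 took 64.4 ± 1.35% of the reads in IPA and 63.3 ± 1.93% in control. In DN195_c0_g1 the member i10 took 37.2 ± 0.33% in IPA and 33.3 ± 4.89% in control, with control 1 at 28.0% and control 3 at 37.7%. In the cyclase gene, i7 took 24.4 ± 0.30% in IPA and 23.9 ± 0.68% in control, and i6 took 3.85 ± 0.11% in IPA and 5.12 ± 1.14% in control. Read shares depend on isoform length as well as on abundance. Where only some isoforms of a gene were listed, selection by fold favours higher shares of these in IPA.

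Some of these genes had isoforms both on and off the list. Just inside its fold threshold stood cyclase i23, with a log2 fold change of 1.04 in the authors' deposited table, and DN195_c0_g1_i10, with 1.08 there. Off the list, on the log2(normalised reads + 0.5) scale, stood cyclase i6 at 0.87 and DN195_c0_g1_i11 at 0.86. Chlorophyllide a oxygenase i3, the remaining isoform of a member gene, was lower at 0.47. As ratios of group means, cyclase i6 was at 1.88, DN195_c0_g1_i11 at 1.82 and chlorophyllide a oxygenase i3 at 1.37. The listed cyclase i23 and DN195_c0_g1_i10, just inside the fold threshold, were at 2.05 and 2.11. By these ratios each unlisted isoform fell short of the fold threshold. The authors' statistics are known here only for listed transcripts, so whether the unlisted isoforms also missed the FDR threshold is not known. On the log2(normalised reads + 0.5) scale cyclase i23 was at 1.01 and DN195_c0_g1_i10 at 1.11.

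**Figure D3:**
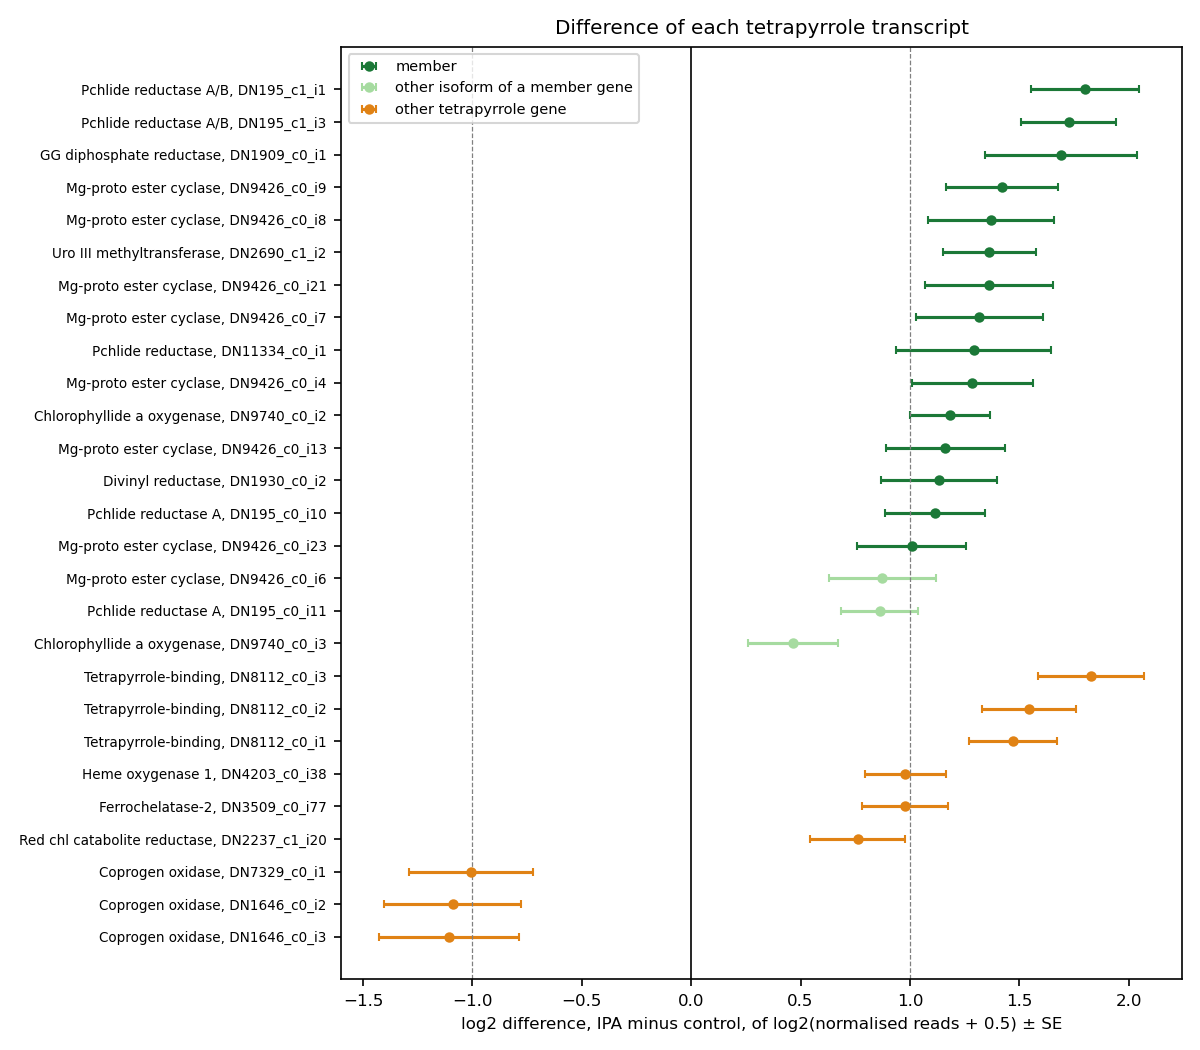
Log2 difference (x axis, IPA minus control of log2(normalised reads + 0.5), ± SE from limma) of the 15 members, the 3 isoforms of their genes that were not on the list and 9 further tetrapyrrole transcripts. Dashed lines mark a log2 difference of 1 in either direction. The members lie between 1.01 and 1.80, and the 3 coproporphyrinogen oxidase transcripts lie between -1.11 and -1.0.

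The members also ordered the libraries alike within each group. IPA 1 was the lowest IPA library for all 15, IPA 3 the highest for 14, and control 1 the lowest control for 14. Among the 45 antenna transcripts described below, IPA 1 was the lowest IPA library for 38 and control 1 the lowest control for 41. The share of all transcripts with this order was not counted, so it is not read as a trait of the members. Relative to each transcript's mean over the 6 libraries, the members averaged 0.39, 0.67 and 0.96 log2 units in IPA 1, 2 and 3 and -1.21, -0.43 and -0.38 in control 1, 2 and 3. With 1 transcript per gene the averages were 0.45, 0.69 and 0.90 in IPA and -1.22, -0.45 and -0.37 in control, so the 7 cyclase isoforms did not set this order.

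Control libraries also differed from each other and from IPA in what else they held. Reads of the 20 transcripts with the highest means made up 8.08, 9.96 and 7.62% of the total in IPA 1, 2 and 3, against 29.3, 35.1 and 15.8% in control 1, 2 and 3. Transcripts described with the names of small open reading frames of ribosomal DNA or of the plastid (TAR1, ART2, YLR154W-F and ycf68, 7 transcripts chosen after their values were seen) took 5.46, 6.98 and 4.94% in IPA and 24.0, 28.7 and 11.6% in control. These names were searched only on the authors' list, so unchanged transcripts of this kind could not enter. The part of these differences in library content in the members' values was not tested beyond the scaling of the libraries. With library totals that leave out the 20 most abundant transcripts, the members' median log2 difference was 1.30, against 0.01 over all transcripts. With full library totals it was 1.62, against 0.25 over all transcripts, and 84.1% of all calls were then higher in IPA, against 53.7% with the authors' scaling. The order of the groups was kept by all 15 members under both. The share of all transcripts with this order was not counted under these scalings. Selection of the members on this contrast favours the order, so nothing is read from this count.

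Other genes of tetrapyrrole metabolism went both ways. The search for 18 further terms of the pathway matched 9 transcripts of 6 genes, all from the same selection on this contrast: 5 were called higher in IPA by limma, none was called lower and 4 were not called. Of all transcripts tested, 4.49% were called higher. Without IPA 2 or without control 2, 3 of the 9 were called higher. The tetrapyrrole-binding protein of DN8112_c0_g1, whose Arabidopsis counterpart GUN4 stimulates magnesium chelatase, had 3 transcripts, all called higher. Summed over them it had 43.3, 45.4 and 48.7 normalised reads in IPA 1, 2 and 3, against 10.2, 16.7 and 16.6 in control 1, 2 and 3. The difference was 3.16-fold, and control 1 was the lowest control.

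Coproporphyrinogen-III oxidase, which acts before the fork into chlorophyll and heme, was lower in IPA in 3 transcripts of 2 genes, none of them called. DN7329_c0_g1_i1 had 74.1, 75.1 and 85.7 normalised reads in IPA 1, 2 and 3, against 262, 131 and 113 in control 1, 2 and 3, and its mean in IPA was 0.46 of the control mean. DN1646_c0_g1_i3 had 24.9, 26.6 and 29.0 in IPA and 105, 49.0 and 38.4 in control (log2 difference -1.11). In both the IPA libraries lay below all controls. All 3 transcripts kept this order also with library totals (log2 differences from -0.80 to -0.70). The share of all transcripts with this order was not counted, and selection on this contrast favours it, so nothing is read from it. Control 1, the lowest control for 14 of the members, was the highest control for this enzyme. Summed over its 4 isoforms DN1646_c0_g1 was at 172 ± 11.3 in IPA and 275 ± 98.8 in control, a smaller difference than in its 2 listed isoforms, which their selection by fold favours. All 3 transcripts were called lower without control 1, without control 3, with DESeq2, and with totals that leave out the 20 most abundant transcripts.

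On the heme side, 1 ferrochelatase-2 transcript, of the enzyme that inserts iron into protoporphyrin, was at 12.3 ± 2.17 in IPA and 5.95 ± 0.82 in control (called). It took 8.38% of the reads of its 21 isoforms in IPA and 6.31% in control, and the sum over these isoforms was at 146 ± 25.6 in IPA and 94.2 ± 9.24 in control, 1.55-fold higher. Heme oxygenase 1, which opens the heme ring on the way to the phytochrome chromophore, had 1 called transcript at 1.99 ± 0.07 in IPA and 0.77 ± 0.03 in control, while its 18 isoforms together differed 1.45-fold. Red chlorophyll catabolite reductase 1, of chlorophyll breakdown, had 1 transcript at 2.07 ± 0.19 in IPA and 1.04 ± 0.31 in control, which was not called, and its 7 isoforms together differed 1.28-fold. In these 3 genes the listed isoform differed more than the gene as a whole, which its selection by fold on this contrast favours.

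Transcripts of the proteins that bind the finished pigment were also higher in IPA. The antenna list (chlorophyll a-b binding and early light-induced proteins) held 45 transcripts of 19 genes, again from the authors' selection. All 45 were called higher in IPA, where 4.49% of all transcripts were, and because of the selection nothing is read from this count. With single libraries left out it was 42 to 45, while the count over all transcripts, 6587, was 1278 without IPA 2. The antenna log2 differences were 1.08 to 3.58 with a median of 2.31, against 1.32 for the members, a difference between the lists that was not tested. In the libraries the antenna transcripts averaged 0.83, 1.33 and 1.17 log2 units relative to their means in IPA 1, 2 and 3 and -1.46, -0.84 and -1.03 in control 1, 2 and 3. Control 1 was again the lowest, but the highest IPA library was IPA 2 for 28 of the 45, where it was IPA 3 for 14 of the 15 members. Both counts hold several isoforms of the same genes, and this difference was not tested. The small subunit of RuBisCO, a marker of photosynthetic tissue, was present in every library. Its 4 listed transcripts of 2 genes, from the same selection, differed 2.46 to 2.70-fold. All 4 were called higher, and 1 without IPA 2.

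Of the regulators searched for (GLK, PIF, HY5 and GATA factors 21 and 22 among them), 3 GATA factor transcripts of 3 genes were on the list, and all were called higher in IPA. The search covered only this list, selected on the same contrast, so nothing is read from their count. Of all transcripts tested, 4.49% were called higher. Without IPA 2 none of the 3 GATA transcripts was called, without IPA 1 there were 2, and without IPA 3 or control 2 there was 1. The Arabidopsis counterparts of these factors, GNC and CGA1, promote greening and chlorophyll synthesis. Putative GATA transcription factor 22 described isoforms of 2 genes. Isoform i2 of DN3751_c1_g1 was at 5.36 ± 0.78 in IPA and 2.13 ± 0.30 in control. The gene's other isoform is on the list as GATA transcription factor 23, and their sum was at 14.7 ± 1.59 in IPA and 4.56 ± 0.88 in control, 3.23-fold higher. Isoform i3 of DN5127_c0_g1 was at 1.53 ± 0.11 in IPA and 0.52 ± 0.27 in control. It took 8.16% of its gene's reads in IPA and 5.05% in control, and the sum over both isoforms was at 19.0 ± 2.31 in IPA and 10.1 ± 2.85 in control, 1.88-fold higher against 2.91-fold for the isoform. Selection of the isoform by fold on this contrast favours its larger difference. GATA transcription factor 21 was low, at 0.69, 0.84 and 0.79 in IPA 1, 2 and 3, against 0.06, 0.16 and 0.25 in control 1, 2 and 3, where 2 to 11 reads stood behind each control value.

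**Figure D4:**
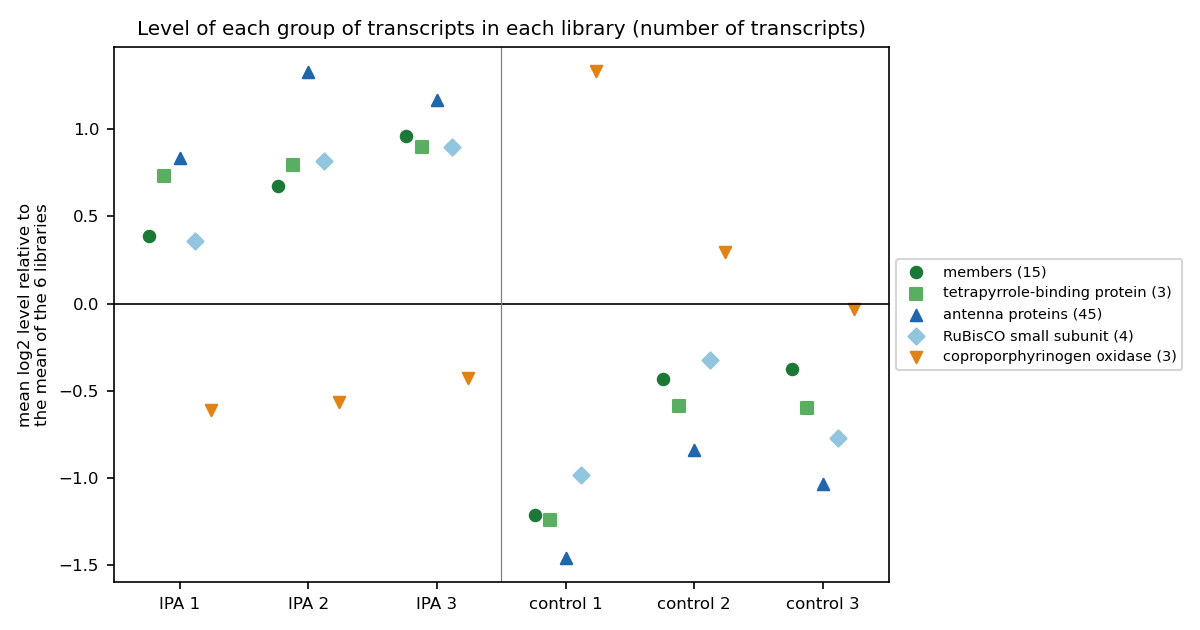
Mean log2 level of groups of transcripts in each library (y axis, log2 of normalised reads + 0.5 relative to each transcript's mean over the 6 libraries; the legend gives the number of transcripts). Members, tetrapyrrole-binding protein, antenna proteins and RuBisCO small subunit lie above 0 in the 3 IPA libraries and below 0 in the 3 controls, with members lowest in control 1 (-1.21); coproporphyrinogen oxidase is highest in control 1.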

How the data were processed

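Reads of 6 libraries (3 IPA, 3 control) were processed by the authors. Per the submitters' processing notes, FastQC, Trimmomatic, BWA, featureCounts and edgeR were among the tools; their versions and settings are unknown here. The deposited library values are a normalised signal, whole reads times 1 constant per library, and whole reads were recovered (100% of values within 0.01 reads). The authors' deposited list holds, per the file headers, 5 statistics besides the library values: log2 fold change and mean log2 CPM, the score LR, and a p-value with its FDR.

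Transcripts passing filterByExpr of edgeR (4.0.16; minimum count 10, minimum total 15) were tested as log2(value + 0.5) with limma (3.58.1, trend and robust, R 4.3.3), IPA against control, Benjamini-Hochberg over 78722 transcripts of 27147 genes; all 15 members passed the filter. The limma step was also run on simulated counts with planted changes. These had the same dispersion for every transcript and no shifts of single libraries beyond depth, so nothing is read from that run for the calls here. Count tests on those reads called 6393 transcripts with edgeR's quasi-likelihood method and 10358 with DESeq2 (1.42.0). The log2(value + 0.5) differences understate those of low transcripts, while the folds are ratios of group means without the added 0.5.

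Members and gene lists were chosen with earlier results of these data known. For each member gene the transcript with the highest mean is given in full, and for the other lists every matched transcript is counted. A list of ribosomal RNA descriptions matched 2 transcripts, both of enzymes acting on ribosomal RNA and both higher in IPA, so it does not measure ribosomal RNA. Isoforms and near-identical genes may share reads, so single isoforms are uncertain. Totals of recovered reads over the transcripts of the full table are given for each library, and reads outside these transcripts are not counted. Sequences were not used here.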

Additional observations from a re-analysis of the deposited data

How the results depend on the processing

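The count of transcripts called was 6587 with limma, 11817 with scaling by library totals, 10358 with DESeq2 and 4377 with the replicate number as a block, and it ranged from 1278 to 10465 when single libraries were left out. Other pseudocounts, no filter, edgeR's quasi-likelihood test and totals without the 20 most abundant transcripts (chosen after seeing the data) kept it between 6393 and 7062. For the members, 14 of 15 were called, 14 or 15 under these alternatives, 15 with the replicate block, and 4 to 15 with single libraries left out; the cause was not tested. Of the 3 GATA factor transcripts called, 2 were called with the replicate block. The member not called, DN11334_c0_g1_i1 of protochlorophyllide reductase, was called without control 1 and without control 3, and not without any other single library. Same-numbered libraries did not deviate together (correlations of -0.09, 0.08 and -0.13 for numbers 1, 2 and 3), not every library correlated best with its own number, and the numbers were not taken as pairs.

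Of 225 recomputed log2 differences of members none changed direction, which their selection on this contrast favours; they ranged from 0.79 to 2.11, and 4 moved by more than the spread between replicates. Of these, 3 came from scaling by library totals, and the fourth was chlorophyllide a oxygenase, 0.80 summed over isoforms against 1.18.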
